A study of Mus musculus with 6 samples.

Results

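The genes described here are the glutathione and antioxidant enzymes of mouse cumulus cells, the granulosa cells that surround the oocyte. They were taken by name: the glutathione transferases, glutathione peroxidases, peroxiredoxins, superoxide dismutases, thioredoxins and thioredoxin reductases, with Txnip, Cat, Gclc, Gclm, Gss, Gsr, Nqo1 and Hmox1. The array held 50 of them among 18194 genes read by a probe set with 1 gene symbol. Prdx1, Prdx5 and Prdx6 were not analysed here.

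Both groups came from wild-type female mice given 5 IU of eCG, a gonadotropin that makes follicles grow, at 21 days of age. The hCG-0h group of 3 samples was collected after 46 h of eCG, with no further hormone. The hCG-6h group of 3 samples came from mice given 5 IU of hCG after 46 h of eCG. This second hormone acts like the ovulatory surge of luteinizing hormone, and collection followed 6 h later. Each sample was made from 50 cumulus-oocyte complexes handled in medium with 5 µM milrinone, a phosphodiesterase inhibitor, in both groups. Titles place hCG-6h samples 2 and 3 at 6 h, while their description labels read 7 h and 8 h. The RNA protocol speaks of whole complexes and the growth protocol of cumulus cells. The labels do not say whether the samples came from different animals, so the p-values measure the spread between these samples, which may be technical. The controls were taken without hCG and without the added hours, so hormone and elapsed time cannot be told apart.

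Glutathione is a small peptide of glutamate, cysteine and glycine that keeps cell thiols reduced. Glutamate-cysteine ligase and glutathione synthetase build it, glutathione reductase recycles its oxidised form with NADPH, peroxidases spend it on peroxides, and transferases join it to lipid-derived and foreign electrophiles. Thioredoxin and its reductase form a parallel thiol system, and superoxide dismutases and catalase act on oxygen radicals and hydrogen peroxide directly. In the follicle, cumulus cells are known to supply the oocyte with cysteine and glutathione through gap junctions.

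After hCG the antioxidant genes moved in both directions. Of the 50 genes, 7 were higher and 11 lower at hCG-6h, and 32 did not pass the test (limma, two-sided, adjusted p under 0.05 over all 18194 genes). The higher genes were the transferases Gsta2, Gsta4, Gsto1 and Mgst1, glutathione synthetase Gss, glutathione reductase Gsr and thioredoxin Txn1, by 1.42-fold to 10.7-fold. The lower genes were Gstz1, Gstm7, Gstm2 and Mgst3 among the transferases, the ligase subunit Gclm, the peroxidases Gpx3 and Gpx7, Sod2, Cat, Txnip and Txnrd1, by 1.39-fold to 5.18-fold. Among them, 5 of the higher and 4 of the lower genes moved 2-fold or more.

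The share of antioxidant genes called was 36%, with 14% higher and 22% lower. Over all genes tested, 21.3% were called, 10.8% higher and 10.5% lower. The higher share of the antioxidant genes was thus near that of all genes and their lower share was above it. With the dimmest 1 in 3 of all genes left out, 18 of the 40 antioxidant genes fitted were called (45%), against 31.6% of all genes fitted. The 2 groups of samples did not overlap in 27 of the 50 genes (54%), against 37.9% of all genes. The median log2 change was -0.145, and 0.01 over all genes.

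**Figure D1:**
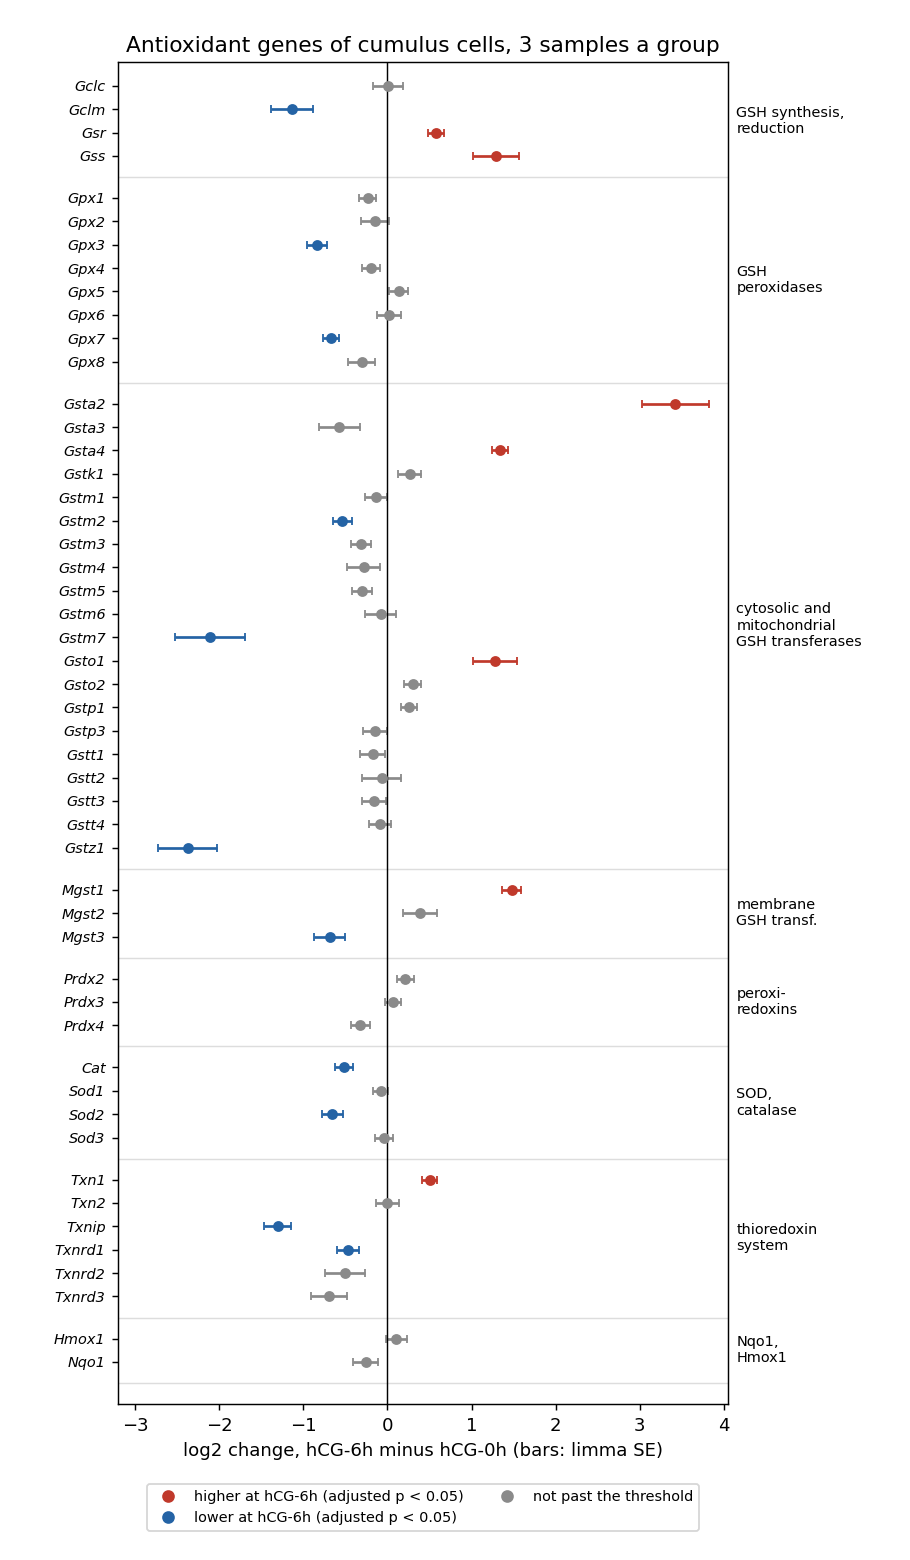
Log2 change from hCG-0h to hCG-6h (horizontal axis, hCG-6h minus hCG-0h) of the 50 antioxidant genes, ordered by role, each from 3 samples a group. Points are the change, bars limma's standard error and colours the test; the 7 red points lie between 0.50 and 3.42 and the 11 blue points between -2.37 and -0.47.

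Values on this array are log2 levels of a probe set. The level of one probe set was not set against that of another, except to rank them by brightness and in a sum over oocyte markers. All 50 genes were tested with no filter on dim values. For 10 of them the mean level lay among the lowest 1 in 3 of all genes, under 6.08 (called dim here), where the background step of the normalization makes folds approximate, and 1 of these, Gstm7, was called. Pearson's correlation across genes was 0.986 to 0.988 between samples of a group and 0.942 to 0.943 between groups, and no sample stood apart.

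Markers of other cells were read in the same samples. Among 9 measured markers of cumulus and granulosa cells, 6 fell and 0 rose (66.7% called, against 21.3% of all genes). Fshr, the follicle-stimulating hormone receptor, fell by 3.22 on the log2 scale. Inha, the inhibin alpha subunit, stayed between 13.36 and 13.49 in all 6 samples. Among 10 oocyte markers, Ooep rose from 6.19, 6.84 and 6.57 to 8.54, 8.32 and 8.54, and 9 did not pass in limma; 3 of the 10, all higher, had an unadjusted p under 0.05. Besides Ooep these were Dppa3, with a change of 0.96 (adjusted p = 0.0851) and no overlap between the groups, and Gdf9, with 0.46 (adjusted p = 0.123) and overlap. The log2 of the summed level of those 10 oocyte markers ran from 8.78 to 9.18 at hCG-0h and from 9.68 to 9.87 at hCG-6h. This sum is of unlogged levels, so Ooep and Dppa3, the brightest of the markers, weigh most in it. Of the oocyte-defining genes, Gdf9 read 5.87, 5.64 and 5.43 and then 6.22, 5.80 and 6.31, while Zp1, Zp2, Zp3 and Bmp15 lay between 3.56 and 5.03 in every sample. In all, 6 of the 10 markers were under the limit for dim genes in all samples. None of 6 theca, 8 macrophage and 6 endothelial markers passed in limma, and 1, 1 and 2 of them had an unadjusted p under 0.05; Cdh5 was the nearest (1.63, adjusted p = 0.0530). Of 4 erythroid markers, 1 (Alas2) fell. The part of oocyte RNA in the changes described below was not tested.

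Glutathione synthesis and reduction were read by 4 genes. Gss, which adds glycine in the last step of synthesis, stood at 7.47, 7.96 and 7.09 at hCG-0h and at 9.16, 8.84 and 8.39 at hCG-6h. The groups did not overlap, and the log2 change was 1.29 ± 0.27 (limma standard error, n = 3 against 3), 2.45-fold higher, with an adjusted p of 0.0174. Its other probe set rose by 1.04. The call was lost without hCG-0h sample 1 (adjusted p = 0.0575), hCG-6h sample 1 (0.0525) or hCG-6h sample 2 (0.0530).

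Gsr, which returns oxidised glutathione to its reduced form, had levels of 10.62, 10.50 and 10.59 before hCG and 11.08, 11.17 and 11.19 after it. Every hCG-6h sample was above every hCG-0h sample, by 0.58 ± 0.10 on the log2 scale (1.49-fold, adjusted p = 0.00672). A second probe set of Gsr changed by 0.18 and did not pass.

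The ligase that makes the first and rate-limiting bond has a catalytic subunit, Gclc, and a modifier subunit, Gclm, and the pair differed. Gclm fell from 10.51, 10.58 and 10.85 to 9.68, 9.90 and 8.95, a log2 change of -1.14 ± 0.25 (2.20-fold lower, adjusted p = 0.0202). The hCG-6h sample 3 was the lowest, and no values overlapped. Its other probe set gave -1.12 with an adjusted p of 0.0733 over all probe sets, and the call of Gclm was lost without hCG-0h sample 2 (adjusted p = 0.0536) or hCG-0h sample 3 (0.0693). Gclc lay at 10.04, 10.21 and 10.46 and at 10.11, 10.07 and 10.56, a change of 0.01 ± 0.18 (adjusted p = 0.978), with overlapping groups. The other Gclc probe set changed by 0.40 without overlap and did not pass in limma (adjusted p = 0.0949 over all probe sets). The difference between the changes of the subunits was not tested.

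**Figure D2:**
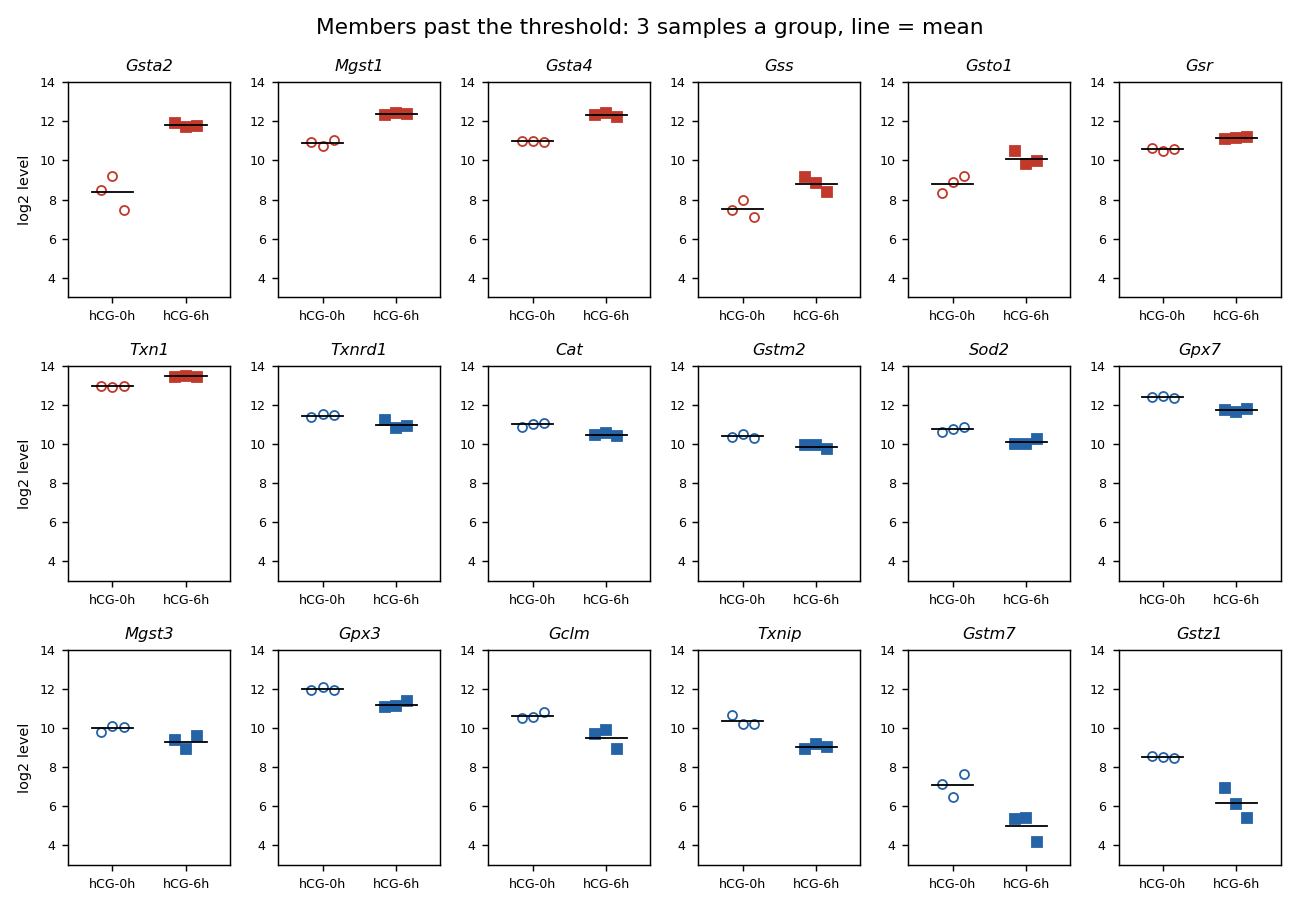
Log2 level of the 18 antioxidant genes past the threshold, 1 panel a gene, in the 3 hCG-0h samples (open circles) and the 3 hCG-6h samples (filled squares), with the group mean as a line. Red panels are higher and blue panels lower at hCG-6h; Gsta2 rises from between 7.46 and 9.18 to between 11.69 and 11.91, and Gstz1 falls from between 8.48 and 8.58 to between 5.41 and 6.93.

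Of the transferases of the cytosol and mitochondria, 3 of 20 rose, 3 fell and 14 did not pass (30% called, against 21.3% of all genes). Gsta2, of the alpha class that conjugates products of lipid peroxidation and binds steroids, had the largest rise among the 50 genes, from 8.48, 9.18 and 7.46 to 11.91, 11.69 and 11.79. The 3 hCG-6h values lay close together and far above the more scattered hCG-0h values. The log2 change was 3.42 ± 0.40, 10.7-fold, with an adjusted p of 0.00146, and between 2.97 and 3.83 with any 1 sample left out. Gsta1, a close relative of Gsta2, was not analysed here, and whether the probe set reads both was not tested.

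Gsta4, an alpha transferase that prefers the lipid aldehyde hydroxynonenal, rose from 11.00, 10.99 and 10.95 to 12.31, 12.41 and 12.25. The SDs inside the groups were 0.03 and 0.08, and the change was 1.34 ± 0.10 (2.54-fold, adjusted p = 0.000192). The third measured gene of the class, Gsta3, stood at 7.15, 7.17 and 6.44 and at 6.67, 6.04 and 6.34, overlapping, with a change of -0.57 (adjusted p = 0.166). Gsta3 passed only without hCG-0h sample 3 (adjusted p = 0.0483).

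Gsto1, an omega transferase that also reduces dehydroascorbate, rose from 8.32, 8.91 and 9.19 to 10.47, 9.80 and 9.99. Its groups did not overlap, and the change was 1.28 ± 0.27 (2.43-fold, adjusted p = 0.0159), with 0.97 at its other probe set, which also passed. Gsto2, its neighbour on chromosome 19 in the RefSeq gene order of GRCm38.p6, was dim, at 4.13, 4.20 and 4.22 against 4.59, 4.44 and 4.42, and did not pass (0.30, adjusted p = 0.0814).

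Gstz1, the zeta transferase that acts in tyrosine breakdown as maleylacetoacetate isomerase, had the largest fall. It was even before hCG, at 8.58, 8.51 and 8.48, and spread out after it, at 6.93, 6.11 and 5.41. The log2 change was -2.37 ± 0.35 (5.18-fold lower, adjusted p = 0.00406). The value of 6.93 belongs to the sample whose every label reads 6 h, and the lower values of 6.11 and 5.41 to the samples whose descriptions read 7 h and 8 h, which was not tested.

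The mu class was read by 7 genes, Gstm1 to Gstm7, which follow one another without another coding gene between them on chromosome 3 in the RefSeq gene order of GRCm38.p6. All 7 changes were below 0, from -2.11 to -0.08, and 2 passed (28.6%, against 21.3% of all genes). In 2 of the other settings the sign of 1 dim gene turned, that of Gstm3 without probe sets that match several transcripts and that of Gstm6 without hCG-0h sample 3. Mu transferases share much sequence, so probe sets of the class may read more than 1 gene, which was not tested.

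Gstm2 fell from 10.37, 10.54 and 10.34 to 9.95, 9.94 and 9.75. The groups were apart by a small distance, with a change of -0.54 ± 0.11 (1.45-fold lower, adjusted p = 0.0166). The call was lost without hCG-0h sample 2 (adjusted p = 0.0564) or hCG-6h sample 3 (0.0556).

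Gstm7 read 7.12, 6.48 and 7.65 before hCG and 5.36, 5.41 and 4.16 after it, a change of -2.11 ± 0.42 (4.31-fold lower, adjusted p = 0.0134). Its hCG-6h values were dim, and a second, dim probe set of Gstm7 changed by -0.05, so the fold is approximate. The mean of both probe sets fell by 1.08. The other mu genes did not pass. Gstm5 was at 10.64, 10.46 and 10.62 and then 10.42, 10.26 and 10.12 (-0.31, adjusted p = 0.126), with no overlap. Gstm1 changed by -0.14, Gstm4 by -0.28, and the dim Gstm3 and Gstm6 by -0.31 and -0.08.

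None of the 4 theta genes, which lie side by side on chromosome 10 in the same order, passed in limma, with or without adjustment of the p-values at 0.05, and their changes ran from -0.18 (Gstt1) to -0.07 (Gstt2). Gstp1, the pi transferase common in many tissues, read 12.39, 12.22 and 12.27 and then 12.53, 12.55 and 12.56. Its groups did not overlap, but the change of 0.25 did not pass (adjusted p = 0.120). Gstp3 (-0.14) and the mitochondrial kappa transferase Gstk1 (0.27) did not pass either.

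The membrane-bound transferases, which sit in the endoplasmic reticulum and outer mitochondrial membrane and also reduce lipid peroxides, split 3 ways. Mgst1 rose from 10.95, 10.76 and 11.03 to 12.34, 12.45 and 12.38, by 1.48 ± 0.11 (2.78-fold, adjusted p = 0.000231). Every hCG-6h value lay far above every hCG-0h value. A dim second probe set, with means of 5.67 and 5.64, changed by -0.03, and the mean of both probe sets changed by 0.72.

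Mgst3 went the other way, from 9.81, 10.10 and 10.06 to 9.38, 8.94 and 9.59. The groups did not overlap and the change was -0.69 ± 0.19 (1.61-fold lower, adjusted p = 0.0414). This call was lost without any 1 sample other than hCG-6h sample 3 (adjusted p of 0.0587, 0.118 and 0.115 without hCG-0h samples 1, 2 and 3, and 0.0858 and 0.0766 without hCG-6h samples 1 and 2). Mgst2, at 5.89, 6.08 and 6.25 against 6.40, 6.12 and 6.85, did not pass (0.38, adjusted p = 0.250).

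The glutathione peroxidases, which reduce hydrogen peroxide and lipid peroxides, had 2 of 8 genes lower and 0 higher. That is 25% called, against 21.3% of all genes. At the probe sets used, the counts were the same at an unadjusted p under 0.05 in limma. Gpx3, the secreted peroxidase, fell from 11.97, 12.13 and 11.96 to 11.06, 11.12 and 11.37. All 3 hCG-6h samples were well under the controls (-0.84 ± 0.12, 1.79-fold lower, adjusted p = 0.00392). Gpx7, a peroxidase of the endoplasmic reticulum that works in oxidative protein folding, fell from 12.40, 12.49 and 12.38 to 11.78, 11.67 and 11.81 (-0.67 ± 0.10, 1.59-fold lower, adjusted p = 0.00391). The groups were again apart, with SDs of 0.06 and 0.07.

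Gpx1, the main cytosolic enzyme, read 11.72, 11.88 and 11.82 and then 11.59, 11.49 and 11.64, apart but with a change of only -0.23 (adjusted p = 0.166). Gpx4, which guards membranes against lipid peroxidation, read 12.47, 12.50 and 12.31 and then 12.34, 12.22 and 12.13, and the groups overlapped (-0.20, adjusted p = 0.276). The other Gpx4 probe set changed by -0.34 without overlap and did not pass in limma (adjusted p = 0.0919 over all probe sets). Gpx8, the relative of Gpx7 in the endoplasmic reticulum, changed by -0.31 (adjusted p = 0.253). Gpx2 changed by -0.15, and the dim Gpx5 and Gpx6 by 0.13 and 0.02.

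Superoxide dismutases turn superoxide into hydrogen peroxide, and catalase breaks hydrogen peroxide down. Sod2, the mitochondrial enzyme, fell from 10.63, 10.78 and 10.87 to 10.01, 10.03 and 10.28 without overlap. The change was -0.65 ± 0.12 (1.57-fold lower, adjusted p = 0.0110), and 2 of its 4 probe sets passed, the others changing by -0.20 and -0.49. Cat fell from 10.89, 11.06 and 11.10 to 10.48, 10.57 and 10.44 (-0.52 ± 0.11, 1.43-fold lower, adjusted p = 0.0148). Its other probe set fell by 0.94. The call of Cat was lost without hCG-0h sample 2 (adjusted p = 0.0524), hCG-0h sample 3 (0.0510) or hCG-6h sample 3 (0.0531).

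Sod1, the cytosolic enzyme, read 13.32, 13.31 and 13.30 and then 13.23, 13.23 and 13.24. The samples lay close together and the groups did not overlap, but the change was only -0.08 (adjusted p = 0.616). Its other 4 probe sets changed by -0.16 to 0.52, and 0 of them passed in limma (1 at an unadjusted p under 0.05). The extracellular Sod3 changed by -0.04 (adjusted p = 0.830).

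In the thioredoxin system 1 of 6 genes rose and 2 fell (50% called, against 21.3% of all genes). Txn1, the cytosolic thioredoxin that reduces protein disulfides, rose from 12.98, 12.95 and 13.00 to 13.47, 13.50 and 13.47. The change of 0.50 ± 0.09 (1.42-fold, adjusted p = 0.00869) was small but many times the SDs of 0.03 and 0.02. A second Txn1 probe set changed by 0.18 and did not pass. Txnip, the protein that binds and inhibits thioredoxin, fell from 10.65, 10.23 and 10.19 to 8.93, 9.20 and 9.02. The groups were far apart (-1.31 ± 0.16, 2.47-fold lower, adjusted p = 0.00166), and the second Txnip probe set fell by 1.43.

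Txnrd1, which reduces Txn1, read 11.38, 11.55 and 11.48 and then 11.23, 10.84 and 10.93. The groups did not overlap, and the change of -0.47 ± 0.13 (1.39-fold lower) was the nearest to the threshold of the 18 calls, with an adjusted p of 0.0478. It was called without hCG-6h sample 1 but not without any other single sample (adjusted p of 0.0731, 0.133 and 0.117 without hCG-0h samples 1, 2 and 3, and 0.135 and 0.133 without hCG-6h samples 2 and 3). Of its 3 probe sets 0 passed in limma when all probe sets were adjusted together, and 1 had an unadjusted p under 0.05, the one used here (adjusted p = 0.0598).

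The other reductases did not pass. The mitochondrial Txnrd2 read 8.25, 8.06 and 8.00 and then 8.09, 7.58 and 7.12 (-0.51, adjusted p = 0.200). Txnrd3 read 7.65, 7.70 and 7.65 and then 7.09, 6.50 and 7.33 (-0.69, adjusted p = 0.0605), with no overlap. A different probe set of each fell, by 0.58 for Txnrd2 and by 0.65 for Txnrd3. Txnrd2 passed without hCG-6h sample 1 (adjusted p = 0.0407), and Txnrd3 without hCG-6h sample 3 (0.0340). With the probe sets of a gene averaged, both passed, Txnrd2 at -0.48 (adjusted p = 0.0296) and Txnrd3 at -0.57 (0.0337). The mitochondrial thioredoxin Txn2 had a mean of 10.64 in both groups.

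Peroxiredoxins, which thioredoxin keeps reduced, had 0 of 3 genes called in limma, 1 with an unadjusted p under 0.05 (Prdx4); a trended, robust fit called Prdx2 and Prdx4. Prdx2 read 11.84, 12.01 and 12.04 and then 12.14, 12.21 and 12.18 (0.21, adjusted p = 0.204), and Prdx4, of the endoplasmic reticulum, 11.43, 11.46 and 11.67 and then 11.29, 11.10 and 11.20 (-0.32, adjusted p = 0.0963). Neither overlapped between the groups. The mitochondrial Prdx3 changed by 0.07 (adjusted p = 0.669).

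Hmox1, the haem-degrading enzyme, and Nqo1, a quinone reductase, are among the textbook targets of the stress-response factor NRF2. The targets of NRF2 were not read as a set here. Others moved in both directions, such as Srxn1 (3.90) and Slc7a11 (4.37), Gclm (-1.14) and Txnrd1 (-0.47). Neither Hmox1 nor Nqo1 passed, and neither had an unadjusted p under 0.05 in limma. Hmox1 read 9.86, 10.24 and 10.05 and then 10.07, 10.22 and 10.18 (0.11 ± 0.13, adjusted p = 0.628), with overlap. Nqo1 was dim, at 5.15, 5.14 and 5.29 and then 4.95, 5.18 and 4.68 (-0.26 ± 0.15, adjusted p = 0.287).

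Across roles, the selenocysteine enzymes among the 50 genes (Gpx1, Gpx2, Gpx3, Gpx4, Txnrd1, Txnrd2 and Txnrd3) all had changes below 0, from -0.84 to -0.15. Selenoproteins outside the 50 genes were not counted here. Of those described below, Sephs2 (1.39) and Msrb1 (0.68) rose and Selenop (-2.11) fell. A change below 0 was found in 32 of all 50 antioxidant genes and in 8912 of all 18194 genes. Of the other peroxidases, Gpx7 and Gpx8 changed by -0.67 and -0.31, and the dim Gpx5 and Gpx6 by 0.13 and 0.02. Of the 7 selenocysteine enzymes 2 passed (28.6%, against 21.3% of all genes), Gpx3 and the Txnrd1 described above. The call of Txnrd1 was lost without any single sample but hCG-6h sample 1. Gpx2 alone turned above 0 in 2 of the other settings, without hCG-0h sample 1 and with hCG-6h sample 1 alone. Of the 32 genes that did not pass, changes ran from -0.69 to 0.38.

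Among the 18 called genes, 12 were read by several probe sets and 6 by 1. All probe sets passed in the same direction for Cat, Gss, Gsto1 and Txnip, and at least 1 did not pass for the other 8. No probe set of a called gene passed in the opposite direction.

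**Figure D3:**
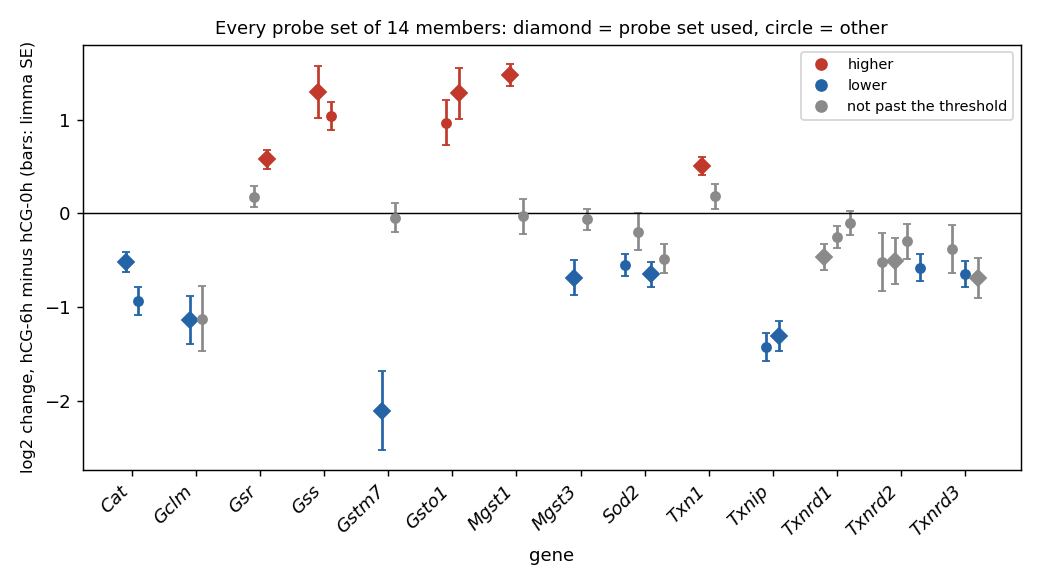
Log2 change from hCG-0h to hCG-6h (vertical axis) of every probe set of 14 antioxidant genes, with limma's standard error as bars; diamonds mark the probe set used and circles the others, coloured by the test over all probe sets. Both probe sets of Cat, Gss, Gsto1 and Txnip are coloured alike, while the second probe sets of Gstm7 (-0.05), Mgst1 (-0.03) and Mgst3 (-0.07) lie at the zero line.

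Promoters of these genes are known for the antioxidant response element, the DNA site of NRF2. RefSeq promoter windows on GRCm38.p6, from 250 bases before to 50 after a start, were at hand for 44 of the 50 genes, in 58 windows. The core of the element, TGACNNNGC on either strand, was found in 7 of 58 windows (12.1%), against 12.4% of all 32851 windows of that length. By gene this was 7 of 44 (15.9%), against 13.99% of all genes with a window, and 15 of 71 (21.1%) for the other redox genes described below, with 5 of 11 higher (45.5%), 3 of 11 lower (27.3%) and 7 of 49 that did not pass (14.3%). Among the antioxidant genes with a window it was in 1 of 5 that rose (Mgst1) and 3 of 11 that fell (Gclm, Gstm7 and Txnrd1). It was also in 3 of 28 that did not pass (Gsta3, Gstm5 and Sod1). Gsta4 and Gsr, which rose, had no window. The cAMP response element TGACGTCA was in 0 of 58 windows, against 1.79% of all windows, and its looser form TGACGTNN in 5 (8.62%), against 7.49%. In these 58 windows of the antioxidant genes, no place matched both the core and that looser form. Windows of the other redox genes were not counted for this, and a core in Ggct, which rose, also matched the looser form. The matches beside a called gene are shown, with that of Sod1 as one whose gene did not pass. Each line reads 5′ to 3′ on the gene's strand, and capitals mark the core or its reverse complement.
Mgst1, higher, chr6:138140446-138140504, plus strand: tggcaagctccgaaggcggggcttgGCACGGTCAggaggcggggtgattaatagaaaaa
Gclm, lower, chr3:122245398-122245456, plus strand: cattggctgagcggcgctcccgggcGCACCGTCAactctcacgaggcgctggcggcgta
Txnrd1, lower, chr10:82859089-82859147, plus strand: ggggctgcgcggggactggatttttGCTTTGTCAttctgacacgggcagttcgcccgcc
Gstm7, lower, chr3:107931710-107931768, minus strand: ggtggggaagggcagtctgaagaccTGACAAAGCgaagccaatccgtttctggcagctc
Sod1, not past the threshold, chr16:90220681-90220739, plus strand: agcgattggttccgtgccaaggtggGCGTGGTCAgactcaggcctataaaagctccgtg
The core ends 48 bases before the start in Mgst1 and Sod1, 84 in Txnrd1, 121 in Gstm7 and 126 in Gclm. A match describes letters in this window and says nothing of binding.

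Genes that feed, regulate and serve these enzymes were read from 8 lists with 83 measured genes, of which 13 rose, 12 fell and 58 did not pass (30.1% called, against 21.3% of all genes). The median change over the 83 genes was -0.02. All 25 called genes are named below.

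The list of cystine uptake, glutathione breakdown and export had 5 of 14 measured genes higher and 1 lower (42.9% called, against 21.3% of all genes). Its median change was 0.42. Slc7a11, the transporter that brings in cystine for glutathione synthesis, rose from 3.65, 4.67 and 5.95 to 8.98, 9.05 and 9.35. It was dim and scattered before hCG and bright after it, by 4.37 ± 0.53 (20.7-fold, adjusted p = 0.00172), with a fold that is approximate for that reason. Slc3a2, its partner chain, rose by 1.18 (2.27-fold, adjusted p = 0.000326). Cysteine can also be made from methionine by cystathionine beta-synthase, Cbs, and then cystathionine gamma-lyase, Cth. Cth rose from 6.15, 6.44 and 6.39 to 8.01, 8.32 and 8.22 (1.86 ± 0.13, 3.62-fold, adjusted p = 0.000190), while Cbs fell from 10.23, 10.33 and 9.96 to 8.02, 7.90 and 8.66 (-1.98 ± 0.22, 3.94-fold lower, adjusted p = 0.00119). The groups overlapped in neither gene. Abcc1, an exporter of glutathione and its conjugates, rose 2.57-fold (1.36, adjusted p = 0.00188). Ggct, which acts in glutathione breakdown, rose 2.15-fold (1.11, adjusted p = 0.00381), but the mean of its probe sets changed by 0.27 and did not pass (adjusted p = 0.137).

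Of the thiol repair genes, 4 of 17 rose and 1 fell (29.4% called, against 21.3% of all genes). Srxn1, sulfiredoxin, which restores over-oxidised peroxiredoxins, rose from 6.84, 7.02 and 7.57 to 11.16, 11.00 and 10.96. All 3 hCG-6h values were far above the controls (3.90 ± 0.20, 14.9-fold, adjusted p = 5.83e-05). Nxn, nucleoredoxin, rose by 1.26 (adjusted p = 0.00332). Smaller rises were those of Sesn2 (0.75, adjusted p = 0.0404), a stress-induced sestrin, and of Msrb1 (0.68, adjusted p = 0.0356), a methionine sulfoxide reductase; Sesn2 passed in 1 and Msrb1 in 2 of the 6 fits without 1 sample. Sesn1, another sestrin, fell 2.64-fold (-1.40, adjusted p = 0.00281). Glutaredoxin Glrx read 8.73, 9.01 and 8.99 and then 9.85, 9.50 and 9.14, with no overlap, and did not pass (0.59, adjusted p = 0.0793), although it did without hCG-6h sample 3 (0.0325) or with its probe sets averaged (0.00756).

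Among 9 NRF2 regulators, 1 rose and 2 fell (33.3% called, against 21.3% of all genes). Nfe2l2, the gene of NRF2, rose from 10.03, 10.25 and 10.16 to 10.65, 10.66 and 10.92 (0.60 ± 0.12, 1.51-fold, adjusted p = 0.0151). Keap1, which marks NRF2 for destruction, changed by -0.02 (adjusted p = 0.950). The small Maf genes Maff and Mafk, whose proteins pair with NRF2, fell by 0.88 (adjusted p = 0.00510) and by 0.96 (0.0158); the call of Mafk was lost without hCG-0h sample 2, hCG-6h sample 2 or hCG-6h sample 3 (adjusted p of 0.0545, 0.0530 and 0.0538). The third, Mafg, changed by 0.13.

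NADPH, which Gsr and the thioredoxin reductases consume, is supplied by several enzymes, of which 7 were measured and G6pdx was not analysed here. The cytosolic malic enzyme Me1 rose by 0.70 (1.62-fold, adjusted p = 0.00589). In mitochondria, Idh2 changed by -0.72 (adjusted p = 0.0398) and the transhydrogenase Nnt by -1.20 (adjusted p = 0.0245), both lower. Nnt read 10.79, 11.00 and 11.06 and then 9.09, 10.19 and 9.96, and did not pass without any 1 hCG-0h sample (adjusted p of 0.0560, 0.0714 and 0.0775) or at a probe set free of several-transcript matches (-0.54, 0.390). Idh2 passed in 2 of the 6 fits without 1 sample, and its call was lost with quantile normalization applied again (adjusted p = 0.0534) and with its probe sets averaged (-0.16, 0.473).

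Selenoprotein supply had 1 of 8 genes higher and 2 lower (37.5% called, against 21.3% of all genes). Selenop, the secreted selenium carrier, fell from 9.43, 9.60 and 9.87 to 7.40, 7.61 and 7.57 (-2.11 ± 0.14, 4.31-fold lower, adjusted p = 0.000158), with a wide gap between the groups. Sephs2, which makes the selenium donor for selenocysteine, rose from 10.41, 10.08 and 10.19 to 11.79, 11.50 and 11.56 (1.39 ± 0.13, 2.62-fold, adjusted p = 0.000653). Eefsec, the elongation factor for selenocysteine, fell by 1.52 (adjusted p = 0.0300), and was not called without any 1 hCG-0h sample (0.0841, 0.0671 and 0.0914).

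In the list of haem, iron, quinone and carbonyl detoxification 1 of 11 genes rose and 3 fell (36.4% called, against 21.3% of all genes). Fth1, the ferritin heavy chain, rose by 0.52 (1.43-fold, adjusted p = 0.00946). The biliverdin reductases Blvra (-0.75, adjusted p = 0.00489) and Blvrb (-0.43, adjusted p = 0.0419) and the epoxide hydrolase Ephx1 (-0.89, adjusted p = 0.00834) fell; Blvrb passed in 1 of the 6 fits without 1 sample, and Ephx1 was dim. Park7, a redox-sensitive protein listed with 5 other partners, fell by 0.69 (1.62-fold lower, adjusted p = 0.00452). Of 11 measured sources of superoxide and hydrogen peroxide, such as NADPH oxidase subunits and xanthine dehydrogenase, 0 passed in limma (2 at an unadjusted p under 0.05, 1 in each direction), and 8 were under the limit for dim genes in all samples.

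**Figure D4:**
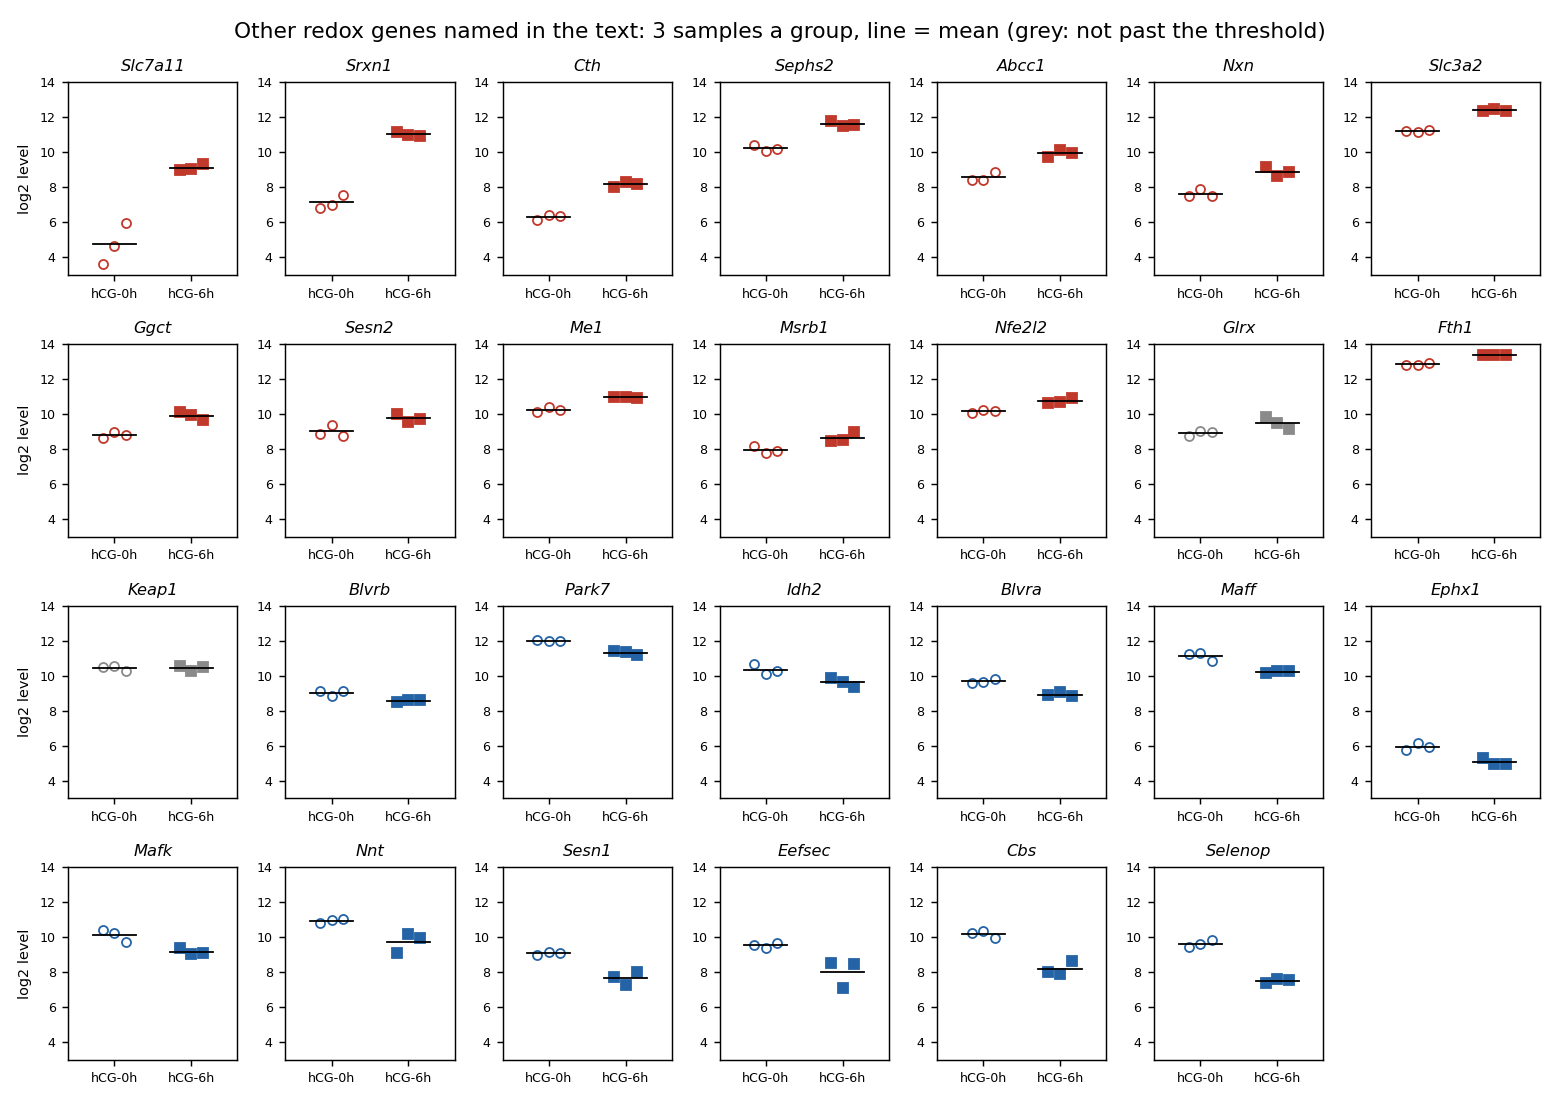
Log2 level of 27 other redox genes in the 3 hCG-0h samples (open circles) and the 3 hCG-6h samples (filled squares), 1 panel a gene, with the group mean as a line; red is higher, blue lower and grey not past the threshold. Slc7a11 and Srxn1 show the widest gaps upward and Selenop, from between 9.43 and 9.87 to between 7.40 and 7.61, the widest downward.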

How the data were processed

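RNA of each of 6 samples was amplified and put on an array of its own, per the labels' protocols. Deposited were log2 levels of 45101 probe sets. They were made by the authors with RMA, with Affymetrix Expression Console 1.1 and GCOS also named, per the submitters' processing notes. RMA subtracts background and makes the arrays' distributions alike, so a shift shared by all genes would not be seen. The build is not given in the sources. Array medians ran from 6.43 to 6.46.

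Probe sets with 1 symbol were used, and a gene with several was read by the brightest, by its mean over the 6 samples. The groups were compared with limma 3.58.1 in R 4.3.3 (lmFit, eBayes, group as the only term), with Benjamini-Hochberg adjustment over 18194 genes at 0.05. The script was checked on simulated data. Equal sample numbers did not pair the groups (correlations of deviations from -0.0156 to 0.0286).

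The genes and lists were chosen with earlier results of these data known. All called antioxidant genes are named, with up to 4 called genes of each other list and Nfe2l2, Keap1, Slc7a11, Glrx, Srxn1 and G6pdx; Slc3a2, Ggct and Msrb1 were added after their values were seen. Alternatives covered the replicate block, scaling, dim genes, weights, probe sets and left-out samples.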

Additional observations from a re-analysis of the deposited data

How the results depend on the processing

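All 18 called antioxidant genes kept their sign in each of 16 alternative fits that held them (Gstm7, a dim gene, was left out of 1), and 6 (Gpx3, Gsta2, Gsta4, Gstz1, Mgst1 and Txnip) were called in each. With 1 sample left out, 13 to 16 of the 18 calls were kept, with 6 to 11 antioxidant genes lower and 6 to 7 higher. With only hCG-6h sample 1, the one whose labels agree on 6 h, against the 3 controls (its spread taken from them), 809 of all genes were higher and 767 lower, and 3 antioxidant genes were higher and 3 lower. The replicate block, although the numbers do not pair the samples, gave 7 higher and 8 lower, without Gclm (adjusted p = 0.0512), Mgst3 (0.0723) and Txnrd1 (0.108). Txnrd1 was also lost with arrays centred on their medians (0.0562), and when each gene's probe sets were averaged (0.0913), as was Mgst3 (0.0746), while that averaging added Txnrd2 (0.0296) and Txnrd3 (0.0337). A trended, robust eBayes gave 9 higher and 13 lower, adding Gpx1, Gstp1, Prdx2 and Prdx4. Txnrd3 was called without the dimmest 1 in 3 genes (0.0485). The median change of all genes ran from -0.01 to 0.03 over the settings. Dim genes have no detection calls here, and 3 samples a group limit the precision.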
